A study of Mus musculus with 4 samples.

Results

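Cholesterol synthesis was followed through single-cell RNA-sequencing libraries of mouse arteries by the transcripts of 8 genes, Hmgcs1, Idi1, Fdps, Fdft1, Sqle, Lss, Cyp51 and Insig1. The genes were taken by name, 7 as enzymes of the pathway and Insig1 as a protein that regulates it. All 8 were listed in each of the 4 libraries, among 26391 genes in the ligated control arteries, 27696 in the ligated mutant arteries and 31765 in each plaque library. The libraries had 23769 listed genes in common.

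Cells build cholesterol from acetyl-CoA through mevalonate, isoprenoid phosphates, squalene and lanosterol. The transcription factor SREBP2 raises the transcripts of this pathway when sterol in the endoplasmic reticulum is scarce, and INSIG proteins hold SREBP2 and its escort SCAP in that membrane when sterol is plentiful. In atherosclerotic plaques, vascular smooth muscle cells (VSMCs) lose contractile proteins, take up lipoprotein cholesterol and can acquire features of fibroblasts or cartilage cells.

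The study asked how premature senescence of VSMCs affects their phenotype, in atherosclerosis and after injury. Droplet libraries (10x Genomics, 3′ chemistry) were made from plaques dissected from the aortic root, aortic arch and carotid arteries, and from carotid arteries taken 28 days after ligation with the adventitia removed. Each experiment had 1 library per genotype, and the number of mice behind a library was not stated. The plaque control group was Myh11-CreERt2/Confetti/ApoE-/- and its mutant counterpart was Myh11-CreERt2/Confetti/Sm22a-Trf2T188A/ApoE-/-. Both plaque groups were males on C57Bl/6 that received tamoxifen at 6 weeks of age and a high fat diet for 14 weeks. The ligation groups were wild type and SM22a-TRF2T188A male C57Bl6/J littermates aged 4 to 5 months, with intact Apoe and no labelled Cre or Confetti allele. A minimal Sm22a promoter drives the mutant telomere protein TRF2T188A in arterial VSMCs in both models. Of the plaque cells the authors retained clusters with Confetti expression, so the plaque cells are selected for VSMC origin, while the ligated arteries also yielded endothelial-like and immune-like cells.

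The plaque libraries held 1502 ApoE-/- cells and 929 Trf2T188A/ApoE-/- cells with 37869934 and 24064570 unique molecular identifiers (UMIs), the counted transcript molecules. The ligation libraries held 4967 control cells and 5392 mutant cells with 47713453 and 67426588 UMIs. Median depth was 22765.5 and 24377 UMIs per plaque cell and 8631 and 11153 UMIs per ligation cell, so a share of cells with a UMI cannot be compared between experiments without thinning cells to 1 depth. The ligation libraries shared 10 cell barcodes, the plaque libraries shared 0, and no pair across experiments shared more than 2. Levels below are summed UMIs of a gene per 10000 summed UMIs of the same cells. With 1 library per group no test between groups was possible. Each bracket is an exact 95% interval for counting error only, without variation between animals or between cells. It is too narrow where cells differ by more than counting error. Apoe, deleted in the plaque mice, was at 0.00897 and 0.0155 UMIs per 10000 in the contractile-like cells of the ApoE-/- and Trf2T188A/ApoE-/- plaques, against 1.45 and 1.38 in those of the ligated control and mutant arteries. Terf2, the gene of TRF2, was at 0.179 and 0.178 in the same plaque cells and 0.190 and 0.168 in the same ligation cells, and its UMIs cannot separate the transgene from the mouse gene.

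Cells were grouped with the 8 genes and the other listed pathway genes left out, and groups were named from markers. Several marker lists, the cartilage list among them, came from the study's own cluster markers, made on these samples. Finding such a list in the matching cluster names that cluster and gives no independent support for the name. In the plaques, contractile-like cells (705 ApoE-/- and 327 Trf2T188A/ApoE-/- cells) held all 16 contractile markers, summed to 538 and 559 UMIs per 10000, with Acta2 the most abundant. Chondrocyte-like cells (82 and 63) held all 16 cartilage markers at 804 and 509, with Col2a1 the most abundant, against 1.97 and 2.30 in the contractile-like cells. The other plaque groups were fibromyocyte-like cells (159 and 128), complement-like cells (110 and 83), and clusters led by Itih4 and Wnt16 (160 and 116), Mpp7 and Flnc (163 and 147), Adamtsl1 and Mdga2 (42 and 41), and Pln and Notch3 (46 and 23). In ligated arteries, a contractile-like Sparcl1 cluster (1576 control and 2280 mutant cells), an Igfbp2 Postn cluster (2022 and 1915), a de-differentiated Lum Gdf10 cluster (1169 and 1011) and an interferon-response cluster (119 and 63) made up the VSMCs.

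Genotype was compared first across all plaque cells, where neither the sum of the 8 genes nor any single member differed beyond its counting interval. The sum was 1.25 [1.21, 1.29] UMIs per 10000 in ApoE-/- plaques and 1.28 [1.23, 1.32] in Trf2T188A/ApoE-/- plaques. In ligation VSMCs it was 1.41 [1.38, 1.45] in controls and 1.42 [1.39, 1.45] in mutants. Both pairs overlap, and both ligation libraries lie above both plaque libraries. A UMI of at least 1 of the genes was found in 84.2% and 81.2% of plaque cells at full depth, and in 43.3% and 40.3% after thinning to 5000 UMIs. In ligation VSMCs the thinned shares were 48.3% and 47.4%.

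Along the pathway the same order of experiments did not hold for every step. Hmgcs1, whose enzyme makes the precursor of mevalonate, was at 0.375 and 0.377 in ApoE-/- and Trf2T188A/ApoE-/- plaques and at 0.572 and 0.539 in control and mutant ligation VSMCs. Both ligation values were higher. Idi1, which isomerises the activated isoprene unit, was at 0.0967 and 0.1 in plaques and at 0.0789 and 0.101 after ligation, the control ligation value being the lowest. Fdps, which joins these units to farnesyl pyrophosphate, was at 0.173 and 0.190 in plaques and at 0.122 and 0.128 after ligation, and Fdft1, which condenses farnesyl pyrophosphate to squalene, was at 0.125 and 0.120 against 0.0772 and 0.0812. For these 2 middle steps both plaque libraries were the high ones. Sqle, which oxidises squalene, was at 0.0874 and 0.0819 in plaques and at 0.115 and 0.122 after ligation. Lss, which closes the sterol rings, was the least counted member, at 0.0478 and 0.0432 in plaques and 0.0381 and 0.0385 after ligation, with neighbouring intervals overlapping. Cyp51, which demethylates lanosterol, was at 0.174 and 0.179 in plaques and 0.178 and 0.202 after ligation. Insig1, the membrane retention protein, was at 0.172 and 0.186 against 0.231 and 0.206. Both ligation values thus lay above both plaque values for Hmgcs1, Sqle and Insig1, and below both for Fdps, Fdft1 and Lss. For Insig1 and Lss the ratio of the mutant pair had an interval that includes 0, at -0.15 [-0.31, 0.01] and 0.17 [-0.18, 0.50].

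In plaque cells the log2 ratio of Trf2T188A/ApoE-/- over ApoE-/- was 0.03 [-0.03, 0.10] for the sum. Single members ranged from -0.15 [-0.51, 0.21] for Lss to 0.14 [-0.04, 0.31] for Fdps. None of the 8 passed a log2 ratio of 0.25 in either direction, beside 4.24% of 10526 detected genes that passed it upward and 5.51% downward. Detected genes had a UMI in 10% or more of the cells in the first or the second group, a condition applied to this background and not to the members. With cells thinned to 5000 UMIs the ratio of the sum was -0.11, so not even its sign was fixed.

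Ligation VSMCs gave a ratio of 0.01 [-0.04, 0.05] for the sum. Idi1 was higher in the mutant library, at 0.35 [0.16, 0.54], and Cyp51 was 0.18 [0.06, 0.31], while Hmgcs1 was -0.09 [-0.16, -0.01] and Insig1 -0.17 [-0.28, -0.05]. These intervals leave 0 out, but 1 of 8 members past 0.25 upward and 0 downward stands beside 6.08% and 4.72% of 8235 detected genes. The sum therefore joins members of opposite sign.

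**Figure D1:**
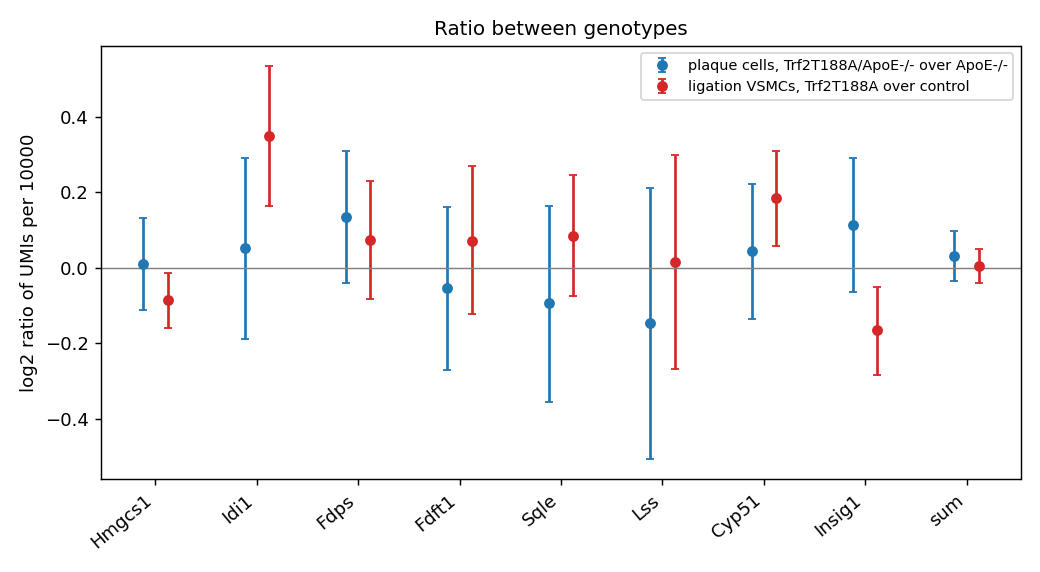
Log2 ratio (y axis) of UMIs per 10000 in the mutant over the control library for each of the 8 genes and their sum (x axis). Values are for all plaque cells and for ligation VSMCs, and bars are exact 95% counting intervals. Plaque ratios run from -0.15 for Lss to 0.14 for Fdps, and Idi1 after ligation sits at 0.35.

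For genes outside the members, the shares of all genes past 0.25 were 4.24% higher and 5.51% lower in mutant plaques, and 6.08% and 4.72% in mutant ligation VSMCs. Of 14 other cholesterol synthesis enzymes, 2 were higher and 2 lower past 0.25 in mutant plaques, among them Hsd17b7 (0.27), Dhcr7 (0.26) and Tm7sf2 (-0.46), each with an interval that includes 0. Srebf2, which encodes SREBP2, was at -0.13 [-0.27, 0.00]. Of 6 genes of the SREBP machinery 0 passed the limit in either direction. Of 5 other SREBP2 targets with at least 50 UMIs, Acss2 was lower (-0.27). Of 10 fatty acid synthesis genes and 7 isoprenoid branch genes 0 passed. Among 9 LXR targets and efflux genes 3 were higher, namely Abcg1 (0.50), the deleted Apoe (0.48) and Nr1h3 (0.29), and 0 were lower. Of 4 esterification and oxysterol genes with 50 UMIs 2 were higher, Ch25h (0.54) and Cyp7b1 (0.30), while Ch25h was lower in fibromyocyte-like cells alone (-2.47 [-3.52, -1.57]). In ligation VSMCs 0 of the 14 enzymes passed the limit, and 0 of 6 SREBP machinery genes did. The lower ones there were Mmab (-0.34) of 5 SREBP2 targets, Scd1 (-0.33) of 10 fatty acid genes, Abcg1 (-0.66) and Abca1 (-0.49) of 9 LXR and efflux genes, and Pdss1 (-0.32) of 7 isoprenoid genes. The higher ones were Cyp27a1 (0.52) and Cyp7b1 (0.26) of 4 oxysterol genes.

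Among cell states of the plaque, chondrocyte-like cells and the Adamtsl1 Mdga2 cluster had about 2-fold the summed level of contractile-like cells in both libraries. The sum was 1.18 [1.12, 1.23] in ApoE-/- and 1.28 [1.20, 1.36] in Trf2T188A/ApoE-/- contractile-like cells, 2.41 [2.25, 2.58] and 2.24 [2.06, 2.44] in chondrocyte-like cells, and 2.37 [2.05, 2.72] and 2.78 [2.48, 3.10] in the Adamtsl1 cluster. Every other named plaque cluster lay between 0.748 and 1.29. In ApoE-/- plaques the order from the top was chondrocyte-like, Adamtsl1, contractile-like, Mpp7 Flnc (1.13), fibromyocyte-like (1.08), Pln Notch3 (1.04), Itih4 (0.977) and complement-like (0.940). The first pair did not differ beyond their intervals, nor did any neighbours from contractile-like cells downward. In Trf2T188A/ApoE-/- plaques the Adamtsl1 cluster stood first, its interval just apart from that of chondrocyte-like cells. Pln Notch3 (1.29), contractile-like, Itih4 (1.08), complement-like (1.05) and Mpp7 Flnc (1.03) followed. Of these neighbours the contractile-like and Itih4 cells were just apart and the others overlapped, and fibromyocyte-like cells were lowest at 0.748 [0.665, 0.838], apart from the cluster above.

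**Figure D2:**
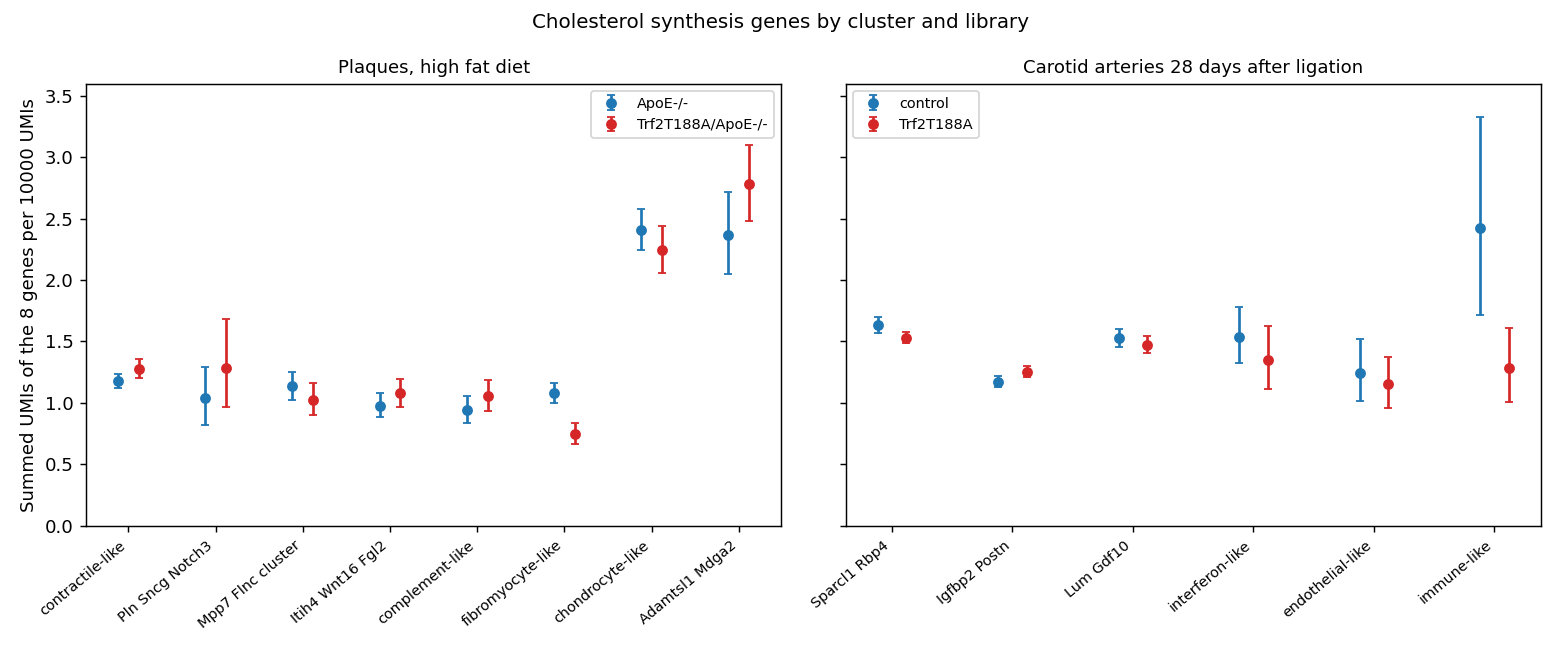
Summed level of the 8 genes in UMIs per 10000 summed UMIs, by cluster and library, plaques at left and ligated arteries at right; points are single libraries and bars exact 95% counting intervals. Chondrocyte-like cells (2.41 and 2.24) and the Adamtsl1 cluster (2.37 and 2.78) stand above the other plaque clusters.

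In chondrocyte-like cells the ratio was highest for Insig1, Cyp51 and Hmgcs1. Insig1 was at 0.106 and 0.122 in ApoE-/- and Trf2T188A/ApoE-/- contractile-like cells and at 0.488 and 0.477 in chondrocyte-like cells. Cyp51 was at 0.143 and 0.180 against 0.396 and 0.472, and Hmgcs1 at 0.346 and 0.356 against 0.724 and 0.540. For these 3 genes both chondrocyte-like values lie above both contractile-like ones. Idi1 was at 0.0935 and 0.117 in contractile-like and 0.191 and 0.170 in chondrocyte-like cells, Fdft1 at 0.127 and 0.125 against 0.188 and 0.174, and Sqle at 0.0897 and 0.0837 against 0.161 and 0.115. Fdps, at 0.222 and 0.246 against 0.194 and 0.260, and Lss, at 0.0480 and 0.0477 against 0.0685 and 0.0340, crossed over between libraries. With both libraries joined, the log2 ratio over contractile-like cells was 2.11 [1.87, 2.36] for Insig1, 1.46 [1.22, 1.70] for Cyp51 and 0.89 [0.71, 1.07] for Hmgcs1. Insig1, Cyp51 and Hmgcs1 are thus apart from each other in order. Idi1 (0.85), Sqle (0.70) and Fdft1 (0.53) came next with overlapping intervals, and Lss (0.18 [-0.44, 0.77]) and Fdps (-0.06 [-0.35, 0.23]) had intervals that include 0.

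Past 0.25, 6 of the 8 members were higher in chondrocyte-like cells and 0 lower, whereas 26.9% of 11345 detected genes were higher and 52.6% lower. The median member was at 0.77 and the median detected gene at -0.30, so a common scale that sets the median gene to 0 would raise each member. The ratio of the sum was 1.04 [0.91, 1.16] in ApoE-/- plaques and 0.81 [0.66, 0.97] in Trf2T188A/ApoE-/- plaques. With 1 added to each mean the former was 0.67, and the latter was 0.51 as the median of the 8 ratios.

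The Adamtsl1 Mdga2 cluster had all 8 members higher. Hmgcs1 was at 0.750 and 0.927 in its ApoE-/- and Trf2T188A/ApoE-/- cells, Insig1 at 0.246 and 0.324, and Sqle at 0.176 and 0.236. Fdft1 was at 0.281 and 0.227, Lss at 0.117 and 0.0875, and Cyp51 at 0.445 and 0.227. Fdps (0.234 and 0.464) and Idi1 (0.117 and 0.289) had their high value in the Trf2T188A/ApoE-/- library, Cyp51 in the ApoE-/- library. Joined ratios over contractile-like cells ran from 0.67 [0.30, 1.03] for Fdps to 1.38 [0.94, 1.79] for Insig1, with neighbours in order overlapping throughout. So 8 of 8 passed 0.25 upward and 0 downward, beside 39.5% and 20.1% of 10738 detected genes, whose median was 0.13. The sum was at 1.01 [0.79, 1.22] in ApoE-/- and 1.12 [0.94, 1.31] in Trf2T188A/ApoE-/- plaques, from 83 cells in all. With cells thinned to 5000 UMIs the former was 1.56, and without the 5% of cells with the highest sums the latter was 0.69.

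**Figure D3:**
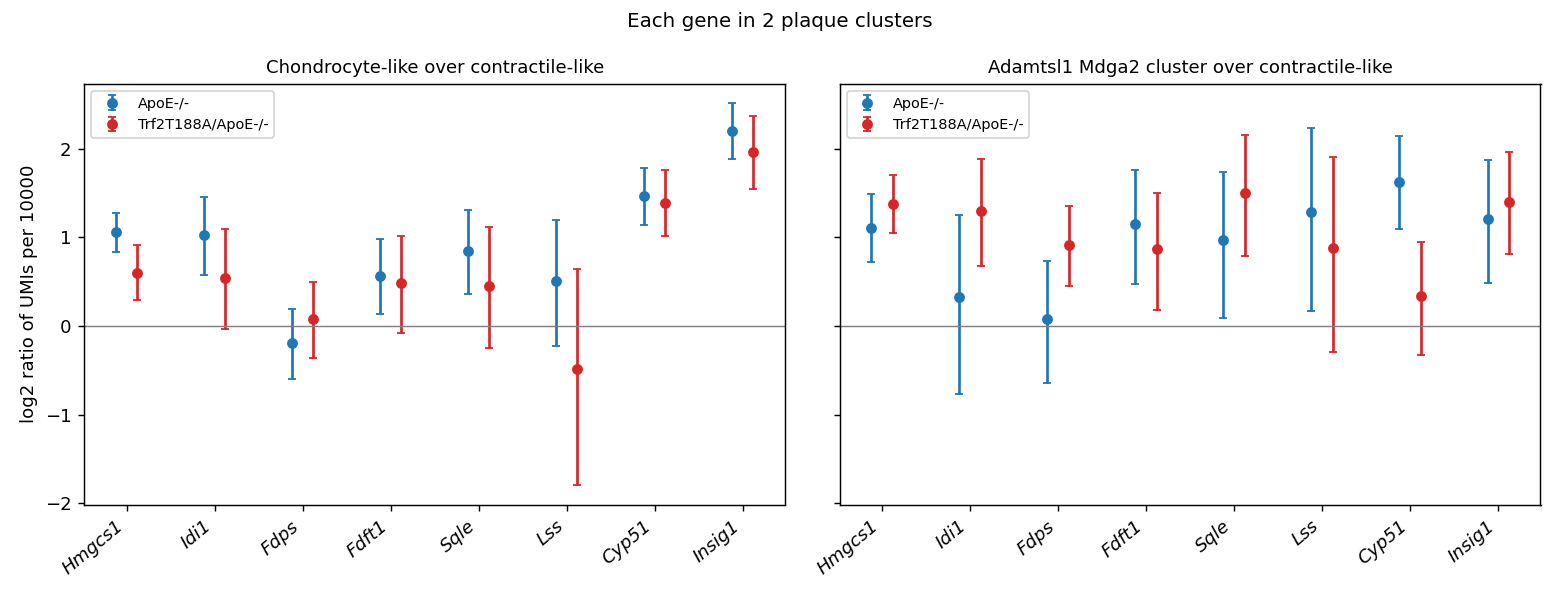
Log2 ratio of each of the 8 genes in chondrocyte-like cells and in the Adamtsl1 Mdga2 cluster over contractile-like cells, with 1 point per plaque library and exact 95% counting intervals as bars. In chondrocyte-like cells the ratios spread from Fdps (-0.20 and 0.08) to Insig1 (2.20 and 1.96), and in the Adamtsl1 cluster all lie above 0.

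Values of cell quality and of other markers moved with these clusters. Chondrocyte-like cells were deeper (median 36053 and 32841 UMIs against 21450 and 24206 in contractile-like cells) and had less mitochondrial RNA (1.63% and 1.10% against 2.67% and 1.79%). All 10 digestion-induced genes were found in both, summed to 154 and 172 in chondrocyte-like cells (Junb highest, 39.4 and 44.5) and 75.9 and 75.4 in contractile-like cells (Fos highest, 23.6 and 25.5). The Adamtsl1 cluster lay between, at 114 and 107. Of 15 immune markers 12 and 11 had a UMI in chondrocyte-like cells, summed to 0.182 and 0.157 with Cd74 the most abundant and Cd52, Cd3e and Cd3g at 0 in both. Of 11 endothelial markers 7 had one in each library, summed to 0.173 and 0.102 with Pecam1 the most abundant and Ptprb at 0 in both, below the 0.477 and 0.439 of contractile-like cells. Mpp7 Flnc cells of Trf2T188A/ApoE-/- plaques were shallow, at a median of 11408 UMIs and 3327 genes. With cells thinned to 5000 UMIs the ratio of the sum was 1.14 and 0.95 in chondrocyte-like cells and 1.56 and 1.42 in the Adamtsl1 cluster, again over contractile-like cells. The part of digestion in the ratios was not tested.

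The rest of the sterol pathway in these clusters was uneven. Counts of list genes here stand beside 26.9% of all genes higher and 52.6% lower in chondrocyte-like cells, and 39.5% and 20.1% in the Adamtsl1 cluster. Of the 14 other synthesis enzymes 5 were higher and 6 lower in chondrocyte-like cells. Hsd17b7 (1.85), Dhcr7 (1.38) and Msmo1 (1.35), 3 enzymes after lanosterol, were among the higher, and Pmvk (-1.12) and Lbr (-1.15) among the lower. Of 5 other SREBP2 targets 3 were higher, among them Stard4, a sterol carrier (2.63), and Tmem97 (1.98), and 2 lower, Mmab (-0.38) and Acss2 (-0.62). Srebf2 itself was -0.17 [-0.42, 0.07], and 2 of 6 SREBP machinery genes were higher and 2 lower. Fatty acid synthesis genes split into 4 higher, with Elovl6 at 2.06, and 6 lower, with Fads2 at -1.82. LXR targets and efflux genes split into 4 and 3 of 9, Abca1 being at -0.26, and isoprenoid genes into 1 and 5 of 7. In the Adamtsl1 cluster 9 of the 14 enzymes were higher and 1 lower. Hsd17b7 (1.60) and Mvd (1.30) led there, with Srebf2 at 0.76 [0.46, 1.05], 5 of 6 SREBP machinery genes higher and 1 lower, and 6 of 10 fatty acid genes higher and 2 lower.

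Fibromyocyte-like cells, the other de-differentiated state of the plaque, did not share this excess. Their sum was 1.08 [0.996, 1.16] in ApoE-/- and 0.748 [0.665, 0.838] in Trf2T188A/ApoE-/- plaques, below that of contractile-like cells of the same library. Idi1 was at 0.0741 and 0.0177, Fdps at 0.153 and 0.104, Hmgcs1 at 0.293 and 0.221, and Insig1 at 0.180 and 0.160. The Trf2T188A/ApoE-/- value was the lower one for each. The joined ratio of the sum over contractile-like cells was -0.35 [-0.46, -0.25]. Joined, 1 of 8 members was higher, Insig1 at 0.63 [0.34, 0.91], and 6 were lower, from -0.36 for Lss to -0.96 for Idi1, beside 34.9% higher and 30.6% lower among 11315 detected genes. The libraries were unlike. The sum gave -0.13 [-0.26, 0.00] in ApoE-/- plaques, with 1 member higher and 3 lower (36.6% and 30.2% of all genes). In Trf2T188A/ApoE-/- plaques it gave -0.77 [-0.97, -0.58], with 1 higher and 7 lower (34.1% and 33.8%). Insig1 also stood apart in complement-like cells, at 0.89 [0.56, 1.21] while Fdps was -1.50 [-1.97, -1.07], and in the Mpp7 Flnc cluster, at 0.999 while Fdps was -1.19 [-1.61, -0.80]. In the Itih4 cluster both were lower, at -0.73 and -0.69. Chondrocyte-like over fibromyocyte-like cells, all 8 members were higher past 0.25, the sum by 1.30 [1.18, 1.42]. Among 11547 detected genes, 18.4% were higher and 56.5% lower in that comparison. Fibromyocyte-like and chondrocyte-like cells joined gave 0.26 [0.18, 0.34] over contractile-like cells, a mean of unlike states and libraries. It was 0.39 [0.29, 0.49] in ApoE-/- plaques, with 4 members higher and 1 lower (32.3% and 36.4% of all genes), and 0.03 [-0.10, 0.17] in Trf2T188A/ApoE-/- plaques, with 2 higher and 4 lower (30.1% and 40.1%). The joined value was 0.00 as the median of the 8 genes and -0.06 without the 5% of cells with the highest sums.

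At full depth, the genotype ratio of the sum among the plaque states was farthest from 0 in fibromyocyte-like cells, at -0.52 [-0.73, -0.33]. This order did not hold with cells thinned to 5000 UMIs, where it was -0.21 [-0.77, 0.35] and every named plaque state had an interval that includes 0. Past 0.25, 7 of 8 members were lower in the mutant and 0 higher, beside 23.2% lower and 15.2% higher among 11487 detected genes. Idi1 had the lowest ratio, -2.06 [-3.45, -0.90], from 46 UMIs in 159 cells against 7 in 128. The intervals of Hmgcs1 (-0.41), Fdps (-0.56) and Cyp51 (-0.61) also lie below 0. The top 5% of these cells held 33.1% of the sum in ApoE-/- and 19.7% in Trf2T188A/ApoE-/- plaques. At or above 4 UMIs per 10000 lay 4 ApoE-/- cells and 0 Trf2T188A/ApoE-/- cells. Those 4 cells had a median doublet score of 0.137, against 0.078 in the remaining ApoE-/- cells. Of the 9 other synthesis enzymes with 50 UMIs 5 were lower and 1 higher, and Srebf2 was -0.51 [-0.94, -0.09]. All 12 cycling markers were found in fibromyocyte-like cells of both libraries, and they summed to 5.21 in ApoE-/- and 2.77 in Trf2T188A/ApoE-/- cells, Stmn1 being the most abundant at 1.18 and 0.771. Their part in the ratio was not tested, and the ratio of the sum was -0.15 with cells thinned to 8000 UMIs.

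In some other plaque states the sign of the genotype ratio of the sum depended on depth. Contractile-like cells gave 0.12 [0.01, 0.23] at full depth, -0.13 [-0.39, 0.13] thinned to 5000 UMIs and 0.08 [-0.12, 0.29] thinned to 8000, with 2 members higher at full depth, Cyp51 (0.33 [0.02, 0.64]) and Idi1 (0.33 [-0.07, 0.71]), and 0 lower, beside 7.68% and 9.58% of 10150 genes. Chondrocyte-like cells gave -0.10 [-0.27, 0.06], with 2 higher and 3 lower, Hmgcs1 at -0.42 [-0.74, -0.11] among them, where 25.8% and 28% of 11153 genes passed. Their ratio was -0.33 [-0.80, 0.13] thinned to 5000 UMIs and -0.0056 [-0.39, 0.38] thinned to 8000. The Adamtsl1 cluster gave 0.23 [-0.03, 0.49], and -0.27 [-0.79, 0.24] thinned to 5000 UMIs. At full depth it had 5 members higher and 3 lower, where 29.6% and 29% of 10881 genes passed. Its Fdps (0.98 [0.22, 1.80]), Idi1 (1.30 [0.25, 2.49]) and Cyp51 (-0.97 [-1.75, -0.21]) had intervals without 0. Whether the genotype ratio differed between states was not tested.

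After ligation the VSMC clusters lay between 1.17 and 1.63. The sum was 1.63 [1.57, 1.70] and 1.53 [1.49, 1.58] in control and mutant Sparcl1 cells, 1.52 [1.45, 1.60] and 1.47 [1.41, 1.54] in Lum Gdf10 cells, and 1.17 [1.12, 1.22] and 1.25 [1.21, 1.30] in Igfbp2 Postn cells. The Igfbp2 Postn cluster was the low one in both libraries. Interferon-response cells lay at 1.54 and 1.35 and endothelial-like cells at 1.25 and 1.16, their intervals overlapping those of several clusters. Immune-like cells, at 2.43 [1.72, 3.33] in controls, rest on 38 UMIs in 19 cells, and were at 1.28 [1.01, 1.61] in mutants.

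The Igfbp2 Postn cluster was lower than the contractile-like Sparcl1 cluster along the whole pathway. Fdft1 was at 0.113 and 0.103 in control and mutant Sparcl1 cells and at 0.0579 and 0.0658 in Igfbp2 Postn cells. Sqle was at 0.174 and 0.141 against 0.0850 and 0.102, and Hmgcs1 at 0.630 and 0.565 against 0.501 and 0.488. In each case both Sparcl1 values are the higher ones. The joined ratio of the sum was -0.37 [-0.42, -0.31], and 7 of 8 members were lower past 0.25 and 0 higher, beside 21.4% and 9.97% of 8176 detected genes. Members ran from -0.78 for Fdft1 to -0.25 for Insig1, each interval below 0, and of the 14 other enzymes 8 were lower and 0 higher.

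The Lum Gdf10 cluster differed in composition more than in sum. Insig1 was at 0.194 and 0.205 in control and mutant Sparcl1 cells and at 0.359 and 0.292 in Lum Gdf10 cells, while Fdps was at 0.163 and 0.146 against 0.0841 and 0.0929. The 2 genes thus had opposite order in both libraries. The joined ratio of the sum was -0.07 [-0.12, -0.01]. Insig1 was the 1 member higher past 0.25, at 0.68 [0.54, 0.82], and 4 were lower, Fdps (-0.77), Fdft1 (-0.71), Sqle (-0.59) and Idi1 (-0.29), beside 20.9% higher and 30.2% lower among 8338 genes. Hmgcs1, at 0.625 and 0.576 in Lum Gdf10 cells, had a ratio of 0.03 [-0.07, 0.12]. A high Insig1 beside a low Fdps relative to contractile-like cells was thus measured in the Lum Gdf10 cluster and in the fibromyocyte-like, complement-like and Mpp7 Flnc clusters of the plaque.

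Between genotypes the ligation clusters gave -0.09 [-0.16, -0.02] for the sum in Sparcl1 cells, 0.10 [0.02, 0.17] in Igfbp2 Postn cells and -0.05 [-0.14, 0.05] in Lum Gdf10 cells. In Sparcl1 cells 1 member was lower, Sqle at -0.30 [-0.52, -0.06], and 0 higher, beside 5.57% and 7.39% of 8318 genes. In Igfbp2 Postn cells 3 were higher, Idi1 (0.44 [0.11, 0.77]), Cyp51 (0.35 [0.14, 0.57]) and Sqle (0.27 [-0.02, 0.56]), and 0 lower, beside 9.37% and 11.6% of 8037 genes. In Lum Gdf10 cells 2 were higher, Sqle (0.32 [-0.06, 0.71]) and Idi1 (0.27 [-0.14, 0.68]), and 2 lower, Lss (-0.36 [-0.99, 0.26]) and Insig1 (-0.30 [-0.50, -0.09]), beside 10.6% and 9.41% of 8265 genes. Whether these ratios differed between clusters was not tested.

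Plaque and ligation were compared in contractile-like cells, plaque ApoE-/- against ligated control and plaque Trf2T188A/ApoE-/- against ligated mutant. The sum was lower in plaques, at 1.18 against 1.63 in control and 1.28 against 1.53 in mutant arteries. Hmgcs1, Sqle and Insig1 were lower in plaques in both pairs. Hmgcs1 was at 0.346 against 0.630 and at 0.356 against 0.565, Sqle at 0.0897 against 0.174 and 0.0837 against 0.141, and Insig1 at 0.106 against 0.194 and 0.122 against 0.205. Fdps went the other way, at 0.222 against 0.163 and 0.246 against 0.146. The sum gave a log2 ratio of -0.47 [-0.56, -0.39] in control and -0.26 [-0.36, -0.16] in mutant arteries. Sqle (-0.95 and -0.76), Insig1 (-0.87 and -0.75) and Hmgcs1 (-0.86 and -0.67) had intervals below 0 in both, Cyp51 (-0.59 and -0.25) in the first, and Fdps (0.45 and 0.76) above 0 in both. Idi1 (-0.06 and 0.03), Lss (0.14 and 0.17) and Fdft1 (0.17 and 0.28) had intervals that include 0.

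Past a log2 ratio of 1, the wider limit used between experiments, 0 of 8 members were higher and 0 lower in either pair. The background was 8.6% higher and 2.91% lower of 9965 genes in control arteries, and 7.46% and 2.89% of 10065 genes in mutant arteries. Of the 14 other synthesis enzymes 0 passed. Among genes of the other lists with 50 UMIs, those past 1 were Acaca (1.27 and 1.12) and Pdss2 (1.51 and 1.56), which were higher, and Ch25h (-2.46 and -3.17) and the deleted Apoe (-7.34 and -6.48), which were lower. Without Hmgcs1 the ratio of the sum was -0.27 in control and -0.07 in mutant arteries. Against the Igfbp2 Postn cluster it was 0.00 [-0.08, 0.09] and 0.03 [-0.08, 0.13], so the order depends on which ligation cells stand for the contractile state. With cells thinned to 5000 UMIs the ratio of the sum was -0.40 in control and -0.46 in mutant arteries, and -0.49 and -0.26 thinned to 8000. Diet, vessel, Apoe genotype, Confetti selection and aligner version all differ between the experiments and cannot be told apart. The digestion-induced genes, all 10 with UMIs and Fos the most abundant in each library, summed to 75.9 and 75.4 in these plaque cells and 153 and 140 in these ligation cells.

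The excess in chondrocyte-like cells was carried by a minority of them. After thinning to 5000 UMIs, the variance of the summed count over its mean was 1.01 in contractile-like cells of both plaque libraries, the value of plain counting error. It was 2.56 and 3.06 in ApoE-/- and Trf2T188A/ApoE-/- chondrocyte-like cells, 2.65 and 4.21 in the Adamtsl1 cluster, and 2.17 and 1.22 in fibromyocyte-like cells. In the 3 large ligation VSMC clusters it lay between 1.04 and 1.58. The brackets given for a cluster are too narrow where this value exceeds that of plain counting error. In chondrocyte-like cells 46.3% and 52.6% had no UMI of any member, against 25.5% and 33.7% for a Poisson count of the same mean, while 20.7% and 10.5% had 3 or more. In contractile-like cells 54.1% and 56.8% had none, against 53.9% and 56.9%, and 2.57% and 2.26% had 3 or more. The per-cell median was therefore alike in chondrocyte-like (1.04 and 0.979 UMIs per 10000 at full depth) and contractile-like cells (1.09 and 1.13), and the upper quartile was not (3.51 and 3.22 against 1.64 and 1.69).

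Spearman's rho between the sum of Hmgcs1, Fdps, Lss and Insig1 and the sum of Sqle, Fdft1, Idi1 and Cyp51, across cells that share a library and a depth, was 0.12 and 0.33 in chondrocyte-like cells (82 and 57 thinned cells) and 0.11 and 0.45 in the Adamtsl1 cluster (41 and 39). It was -0.01 and -0.03 in contractile-like cells. Of the pairs of members that could be computed, 20 of 28 and 14 of 21 were positive in chondrocyte-like cells and 14 and 15 of 28 in contractile-like cells. With the summed count, Msmo1 gave 0.39 and 0.42 in chondrocyte-like cells, and Abca1 -0.22 and -0.27. Digestion-induced genes gave 0.18 and 0.10, cycling genes -0.20 and -0.16, and total UMIs -0.09 and -0.07. These are values across sparse cells of 1 library each, given as description.

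**Figure D4:**
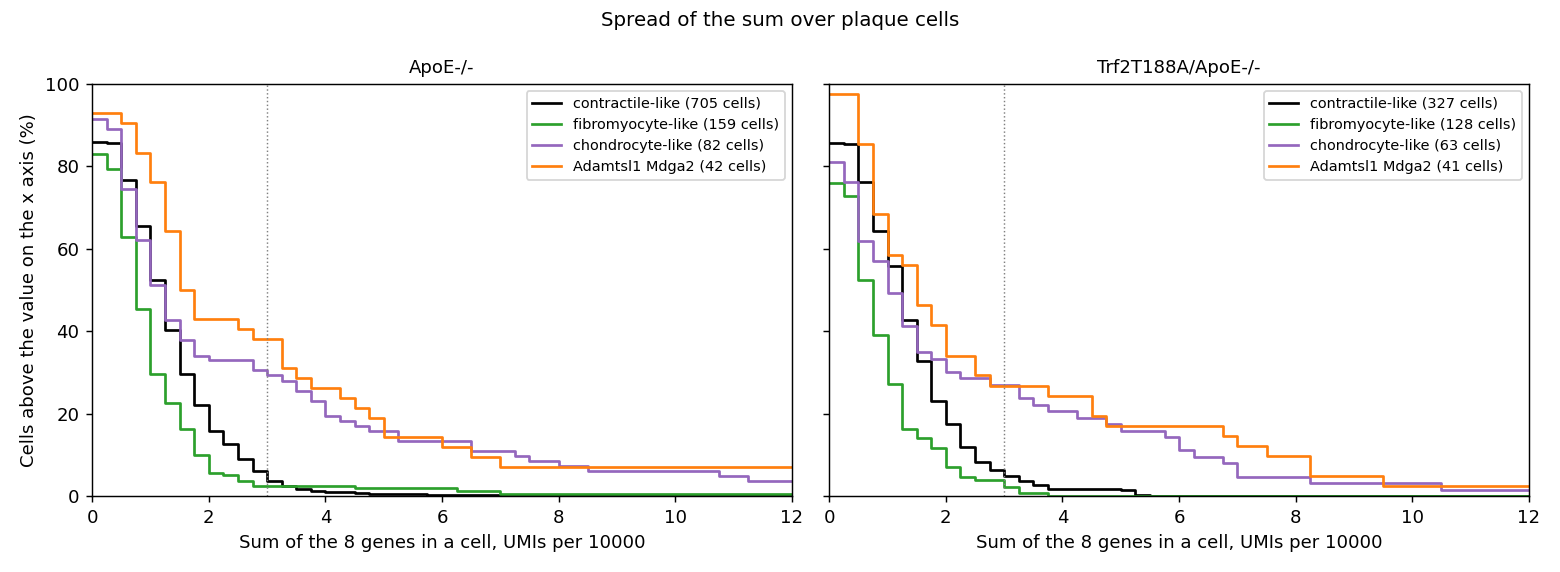
Percentage of cells (y axis) whose summed level of the 8 genes lies above the value on the x axis (UMIs per 10000), for contractile-like, fibromyocyte-like, chondrocyte-like and Adamtsl1 Mdga2 cells, by plaque library; the dotted line marks 3 UMIs per 10000. At or above it lie 29.3% and 27% of chondrocyte-like cells against 3.69% and 4.89% of contractile-like cells.

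Genes other than the members were ranked by their Pearson correlation with the mean log2 level of the members over points of 1 cluster in 1 library with 40 cells or more. Over 15 plaque points and 3330 genes the first 5 were Vasn (0.87), Sobp (0.86), Fibin (0.85), Ctsf (0.82) and Sema3d (0.80). The members' own correlations with the mean of the other 7 ran from 0.58 for Insig1 to 0.96 for Hmgcs1, so Hmgcs1 was nearest the common pattern and Insig1 farthest from it. Over 11 ligation points and 3134 genes the first 5 were Nfic (0.83), Stim1 (0.80), Mbd3 (0.79), Acaa1a (0.75) and Pcnp (0.74), where the members themselves ran from -0.39 for Insig1 to 0.51 for Idi1. The points share libraries, and no p is given.

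On GRCm38, Hmgcs1 lies at chr13:119690379-119708260 and Idi1 at chr13:8885501-8892451, both on the plus strand. Fdps lies at chr3:89093588-89101959 and Fdft1 at chr14:63145150-63179578, both on the minus strand, Sqle at chr15:59315077-59331192 and Lss at chr10:76531588-76557138 on the plus strand, Cyp51 at chr5:4081145-4104746 on the minus strand and Insig1 at chr5:28071363-28078662 on the plus strand. Since several members were high together, promoters were read for known motifs of sterol genes. RefSeq promoters (build GRCm38.p6), from 250 bases before to 50 after the RefSeq start, which differs from the start of the gene coordinates above, were matched for 5 of the 8 members, Hmgcs1, Idi1, Lss, Cyp51 and Insig1, and not for Sqle, Fdft1 and Fdps. Both strands were searched, and shares refer to all 32851 promoters of the table. The sterol regulatory element TCACNCCAC was in 1.24% of promoters and in that of Hmgcs1, 137 bases before the RefSeq start, at chr13:119690205-119690231 on the plus strand, with the motif in capitals:

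Hmgcs1 sterol regulatory element: gtcaccgtcTCACCCCACttcccaggt

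The CCAAT box, the recognition letters of NF-Y, was in 37.4% of promoters and in all 5, and the GC box GGGCGG in 35.7% and in all 5. The E-box CACGTG was in 7.15% and in Insig1. The CCAAT match nearest upstream of the RefSeq start is shown for each member, 5′ to 3′ on the strand of its gene, with the match in capitals and ATTGG standing for a match on the opposite strand. The windows are chr13:119690297-119690319 (Hmgcs1), chr13:8885583-8885605 (Idi1), chr10:76531534-76531556 (Lss) and chr5:28071187-28071209 (Insig1) on the plus strand, and chr5:4104713-4104735 (Cyp51) on the minus strand. They start their match 45, 14, 62, 216 and 29 bases before the RefSeq start in this order:

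Hmgcs1: ccgcctctcATTGGctgaaagcg
Idi1: caaggtgccATTGGctggcgacc
Lss: gatgctctgATTGGccgagctcg
Insig1: cctcctcccATTGGctccggcgg
Cyp51: tgtccgccaCCAATctggtcctg

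A match describes letters and not a bound site, and Insig1 and Lss, whose ratios in chondrocyte-like cells were 2.11 and 0.18, both hold the CCAAT and GC boxes.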

How the data were processed

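Per the labels and methods of the study, reads were aligned to GRCm38 with Cell Ranger 7.0.0 (plaque) or 6.1.2 (ligation). The deposited signal was UMIs per 10000 UMIs of the cell, linear, as normalised by the authors, and UMIs were recovered from it as whole multiples within 0.01. Cells were clustered in Seurat 5.3.0 (R 4.3.3) with 2000 variable genes, 18 components and resolution 0.9 (plaque) or 17 and 0.2 (ligation), without integration. Names needed a mean log2 ratio of 0.5, 3 markers and 40 cells, limits set after seeing the data. Ratios of summed UMIs have exact conditional binomial intervals, levels exact Poisson intervals (scipy 1.17.1, pandas 2.3.3, numpy 2.4.6, Python 3.11.15). Counting code was tested on simulated data. Scrublet (scanpy 1.11.5) called at most 0.323% of a library's cells doublets, so the 5% highest scores were left out as an alternative. The 8 members and the pathway lists were chosen with earlier results of these data known. Named list genes are those with the 2 highest and 2 lowest genotype ratios among genes with 50 UMIs, and Srebf2, Apoe and Abca1. List genes named in other comparisons were chosen after their values were seen. Alternatives changed the cell weighting, pseudocount, sum, denominator, cells, depth, resolution and variable genes.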

Additional observations from a re-analysis of the deposited data

Results flagged for a closer look

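At full depth, contractile-like cells gave genotype ratios of opposite sign in the 2 experiments. The log2 ratio of the sum of the 8 genes, mutant over control, was 0.12 [0.01, 0.23] in plaques and -0.091 [-0.16, -0.02] in the Sparcl1 cluster after ligation, and both counting intervals leave 0 out. With cells thinned to 5000 UMIs both ratios were below 0, at -0.13 [-0.39, 0.13] and -0.07 [-0.18, 0.04], with intervals that include 0, and with cells thinned to 8000 UMIs they were 0.08 [-0.12, 0.29] and -0.14 [-0.24, -0.04]. The signs were opposite at full depth and at 8000 UMIs, and the same at 5000. The difference was not tested, and with 1 library per group it rests on single pairs of libraries.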

How the results depend on the processing

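Of 152 values of summed ratios under alternatives 117 stayed within the counting interval, 34 moved beyond it and 1 reversed, meaning a change of sign where the first interval leaves 0 out; of 448 for single genes, 398, 49 and 1; of 21 others 17 stayed and 4 moved. The alternative without the 5% of cells with the highest sums, chosen after seeing the data, moved de-differentiated over contractile-like plaque cells from 0.26 to -0.0565, a reversal, the chondrocyte-like ratio in ApoE-/- plaques from 1.04 to 0.85, the Adamtsl1 ratio in Trf2T188A/ApoE-/- plaques from 1.12 to 0.69 and the fibromyocyte-like genotype ratio from -0.52 to -0.27. The comparisons beyond those of the design (chondrocyte-like, Adamtsl1, fibromyocyte-like genotype and Igfbp2 Postn ratios) were also added after seeing the data, as were genotype ratios of single states in thinned cells. Of the genotype ratios of single states, the tally of summed ratios covers only that of fibromyocyte-like cells. Outside it, contractile-like plaque cells went from 0.12, with an interval above 0, to -0.13 thinned to 5000 UMIs, also a reversal. Thinning to 5000 UMIs gave -0.11 for plaque genotype, -0.46 for plaque over ligation in mutants, 1.56 and 1.42 for the Adamtsl1 ratio in ApoE-/- and Trf2T188A/ApoE-/- plaques, -0.21 for fibromyocyte-like genotype and -0.44 for Igfbp2 Postn over Sparcl1 cells. Thinning to 8000 gave 0.0203 for de-differentiated plaque cells, 0.88 for chondrocyte-like ApoE-/- cells and -0.15 for fibromyocyte-like genotype, and reversed Hmgcs1 in de-differentiated over contractile-like plaque cells from 0.21 to -0.0044. A pseudocount of 1 gave -0.26 for plaque over ligation in controls, 0.11 for de-differentiated plaque cells, 0.67 and 0.56 for the chondrocyte-like ratio in ApoE-/- and Trf2T188A/ApoE-/- plaques, 0.73 for Adamtsl1 in Trf2T188A/ApoE-/- plaques, -0.16 for fibromyocyte-like genotype and -0.21 for Igfbp2 Postn cells. Leaving out the most abundant member gave 0.0645 for ligation genotype, -0.27 and -0.0678 for plaque over ligation in controls and mutants and -0.44 for Igfbp2 Postn cells. The median of the 8 ratios gave 0.0731 for ligation genotype, -0.33 and -0.11 for plaque over ligation, 0.00434 for de-differentiated plaque cells, -0.23 for Lum Gdf10 cells and 0.51 for chondrocyte-like Trf2T188A/ApoE-/- cells. The mean over cells gave 1.39 for Adamtsl1 in ApoE-/- plaques, and leaving out the 5% highest doublet scores 0.83 in Trf2T188A/ApoE-/- plaques. Lower resolution gave 0.13 for de-differentiated plaque cells and -0.24 for fibromyocyte-like genotype; it merged the Lum Gdf10 and Sparcl1 cells, so their ratio has no value there. Higher resolution gave -0.47 for Igfbp2 Postn cells. With detection in 25% of cells, genes past 0.25 between genotypes numbered 201 higher and 213 lower in plaques, in place of 446 and 580, and 285 and 193 in ligation VSMCs, in place of 501 and 389, with 7605 and 5011 genes compared in place of 10526 and 8235. The causes of these moves were not tested. Depth limits members such as Lss, with 31 UMIs in all chondrocyte-like cells. No paired analysis was possible because each group has 1 library.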

Other observations

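In chondrocyte-like cells with a high sum of the 8 genes, at or above 3 UMIs per 10000, a limit chosen after seeing the values, the summed other synthesis enzymes were high as well. There were 24 such cells of 82 in ApoE-/- and 17 of 63 in Trf2T188A/ApoE-/- plaques, and 11 and 6 cells lay between 2 and 4. The 14 other synthesis enzymes, which did not choose these cells, summed to 4.81 UMIs per 10000 in high against 1.37 in the remaining cells in ApoE-/- plaques (log2 ratio 1.81 [1.60, 2.02]), and to 4.71 against 1.33 in Trf2T188A/ApoE-/- plaques (1.82 [1.57, 2.07]). Among these enzymes Msmo1 was at 1.46 against 0.193 and 1.25 against 0.225. Stard4 was at 0.778 against 0.0258 and 0.677 against 0.0609 and Srebf2 at 0.866 against 0.112 and 0.423 against 0.134. Insig2 (0.496 against 0.489 and 0.423 against 0.524) and Srebf1 (0.126 against 0.210 and 0.296 against 0.286) were not high, with ratio intervals that include 0. The efflux gene Abca1 went the other way, at 0.0973 against 0.502 and 0.155 against 0.713. With the same limit in other plaque states, the log2 ratio of the summed other enzymes was 0.97 and 1.80 in the Adamtsl1 cluster and 0.44 and 0.84 in contractile-like cells. In fibromyocyte-like cells it was 1.90 and 0.25 [-0.72, 1.06], from 4 and 3 high cells.

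Other genes, picked after their values were seen and from no fixed list, went both ways. Col2a1, the main cartilage collagen, was at 455 against 240 in ApoE-/- and 374 against 122 in Trf2T188A/ApoE-/- plaques, and Cnmd, a cartilage glycoprotein gene, at 6.31 against 2.13 and 5.13 against 1.42. Sox9, the chondrogenic transcription factor, was at 16.2 against 9.30 and 15.4 against 10.9. Lower in the high cells were the acute phase gene Hp (0.350 against 8.53 and 1.30 against 15.1) and Spp1, encoding osteopontin (57.0 against 219 and 91.2 against 201). Also lower were Col10a1, a collagen of hypertrophic cartilage (0.943 against 4.47 and 0.155 against 0.524), and the protease gene Mmp13 (0 against 0.124 and 0.0705 against 1.44). Ibsp was lower as well, at 134 against 269 in ApoE-/- and 47.9 against 71.3 in Trf2T188A/ApoE-/- plaques, while Comp was higher in both. Acan, the cartilage proteoglycan, was at 24.6 against 23.8 and 22.3 against 18.2. Some genes were unlike between the libraries. Eln was lower in the high cells of ApoE-/- plaques (0.321 against 0.524) and higher in those of Trf2T188A/ApoE-/- plaques (11.2 against 1.35). Dlk1 was at 1.53 against 0.15 in ApoE-/- and at 0 in both sets of Trf2T188A/ApoE-/- cells. Median depth was 38839 against 35592 UMIs and 35156 against 32738.5, and median doublet score 0.0611 against 0.0611 and 0.0444 against 0.0485. With a limit of 4 the depth order was reversed in Trf2T188A/ApoE-/- plaques, at 18784 against 33379.5 UMIs, where the ratio of the other enzymes was 1.56 [1.31, 1.81]. The part of these measures in the difference was not tested.

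Limits are those of the design. Each genotype of each experiment has 1 library of an unstated number of mice, so counting intervals leave out variation between animals. They also leave out variation between cells. The chondrocyte-like and Adamtsl1 groups hold 145 and 83 cells, and single genes there rest on few UMIs, Lss on 31 in chondrocyte-like cells. Transcripts of synthesis enzymes were measured, and sterol content and enzyme activity were not. Cluster names rest on marker genes, and the contractile state of ligation has a neighbour, the Igfbp2 Postn cluster, that gives another plaque to ligation ratio.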
